A study of Mus musculus with 6 samples.

Results

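The 10 genes described here encode ligands, receptors and feedback regulators of transforming growth factor beta (TGF-beta) signalling. They were taken by symbol (Tgfb1, Tgfb2, Tgfb3, Inhba, Tgfbr1, Tgfbr2, Tgfbr3, Smad7, Skil and Pmepa1) from the 51826 gene symbols of the count files, and all 10 were found. The libraries hold total RNA of sorted mammary basal cells from pubertal C57B6/N mice. All mice had the genotype SMAcreERT2/N1ICD, where tamoxifen activates a Cre recombinase expressed under a smooth muscle actin promoter, combined with an allele named for the intracellular domain of Notch1. Tamoxifen was given once on postnatal day 21, and cells were taken 72 hours later, on day 24. GFPpos cells were compared with GFPneg cells, each in 3 libraries from pools of 2 to 3 mice, and the GFPpos and GFPneg library of 1 number came from the same pool. Both groups therefore share genotype, age and tamoxifen, and cells that carry the label without the allele were not among the samples. An effect of the allele and a bias in the kind of basal cell that turned GFP-positive cannot be told apart. In these bulk samples fewer cells that express a gene cannot be told apart from less RNA per cell.

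TGF-beta ligands are made as latent precursors and, once released, bind a complex of the type II receptor (Tgfbr2) and the type I receptor (Tgfbr1). The type I receptor phosphorylates Smad2 and Smad3, which enter the nucleus with Smad4 and regulate transcription. Smad7, Skil and Pmepa1 are themselves induced by the pathway and restrain it, so that their transcripts are often read as a sign of its activity. In the mammary gland, TGF-beta is known as an inhibitor of ductal growth.

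The libraries differed in depth, which sets the precision of every value below. GFPneg replicate 1 held 611465 gene counts, against 9912610 to 16043492 in the other 5 libraries. In it 69.2% of the counts lay in 5 abundant noncoding features, against 22.7% to 34.7% in the others. Levels are given as CPM, counts scaled to library size with edgeR's TMM factors (0.501 for that library and 1.05 to 1.22 for the others), and 1 count there stood for 3.28 CPM, against 0.0513 to 0.0911 CPM in the other libraries. The 8 basal markers, among them Krt5, Krt14 and Trp63, were detected in all 6 libraries.

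Smad7, which encodes an inhibitory Smad that blocks the type I receptor, was lower in GFPpos cells of all 3 pools. It stood at 63.2, 59.3 and 63.9 CPM in GFPpos replicates 1, 2 and 3, against 151, 114 and 233 CPM in GFPneg replicates 1, 2 and 3. Under TMM the groups did not overlap, but scaled to library size only they did. The GFPpos libraries lay close together (62.2 ± 2.51 CPM, SD, n = 3) while the GFPneg libraries were spread (166 ± 61.1 CPM, n = 3). The log2 fold change was -1.42 (SE 0.44, 95% interval -2.35 to -0.49), a GFPpos level 0.374 of that in GFPneg cells. It did not pass edgeR's quasi-likelihood test over all genes (unadjusted p = 0.00525, adjusted p = 0.602).

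Within the pools, the GFPpos level of Smad7 was 0.419 of the GFPneg level in pair 1 (95% interval of counting error 0.311 to 0.578, from 46 counts in the GFPneg library). The ratio was 0.522 (0.480 to 0.567) in pair 2 and 0.274 (0.256 to 0.294) in pair 3. All 3 intervals lay below 1, and the ratios of pairs 2 and 3 differed from each other by more than counting error. The pair 1 value depended on the scaling, with a log2 ratio of -1.25 under TMM, -1.27 when scaled to the counts outside the 5 abundant features (chosen after the data were seen) and -0.19 with library size only. With pairs 2 and 3 alone and the replicate number as a block, Smad7 was called lower (log2 -1.38, SE 0.34, adjusted p = 0.00229). That fit holds 2 pairs, so that its p-value rests largely on the spread edgeR shares across genes, and it called 2.52% of all 15346 genes tested higher and 1.41% lower. Smad7 (chromosome 18, 75367529 to 75395935, mm10) shares no exon bases with another annotated gene, and positions of all members are on this build.

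Under TMM, the summed markers of 2 cell types had the direction of Smad7 and did not overlap between the groups. The summed level of the 8 fibroblast markers was 47.4, 39.7 and 100.2 CPM in GFPpos replicates 1, 2 and 3, against 387, 148 and 214 CPM in GFPneg replicates 1, 2 and 3. Of these markers 5 were detected in each GFPpos library and 4, 7 and 6 in GFPneg replicates 1, 2 and 3, and Lum was at 0 counts in all 6. Only the sum was apart, since each fibroblast marker on its own overlapped between the groups. Col1a1, Col1a2 and Col3a1 were lower in GFPpos of each pool, whereas Pdgfra was higher in pair 2 (ratio 1.29, 1.09 to 1.54). Col1a1 gave 256 CPM of the sum in GFPneg replicate 1, from 78 counts. Dcn gave 60.9 CPM in GFPneg replicate 2 and was at 0 counts in GFPneg replicate 1. The summed level of the 8 basal markers was 6577, 5650 and 5968 CPM in GFPpos, against 7889, 12380 and 10510 CPM in GFPneg replicates 1, 2 and 3. With library size only, the basal sum was higher in GFPpos of pair 1 and the groups overlapped. In pair 1 under TMM, Acta2 was 3.76-fold and Lgals7 6.05-fold higher in GFPpos, while the other basal markers were lower. The summed level of the 8 pericyte markers went the other way without overlap. It was 417, 281 and 803.5 CPM in GFPpos, against 59.0, 172 and 225 CPM in GFPneg replicates 1, 2 and 3. Of these markers, 5, 7 and 7 were detected in GFPpos and 2, 8 and 6 in GFPneg replicates 1, 2 and 3. Most of the sum was Notch3 and Mcam, which had 13 and 5 counts in GFPneg replicate 1. Notch3, Mcam and Cspg4 were higher without overlap under TMM, whereas Rgs5 and Pdgfrb overlapped between the groups. Kcnj8, Abcc9 and Higd1b had at most 55 counts in any library. The part of any of these in the Smad7 difference was not tested.

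**Figure D1:**
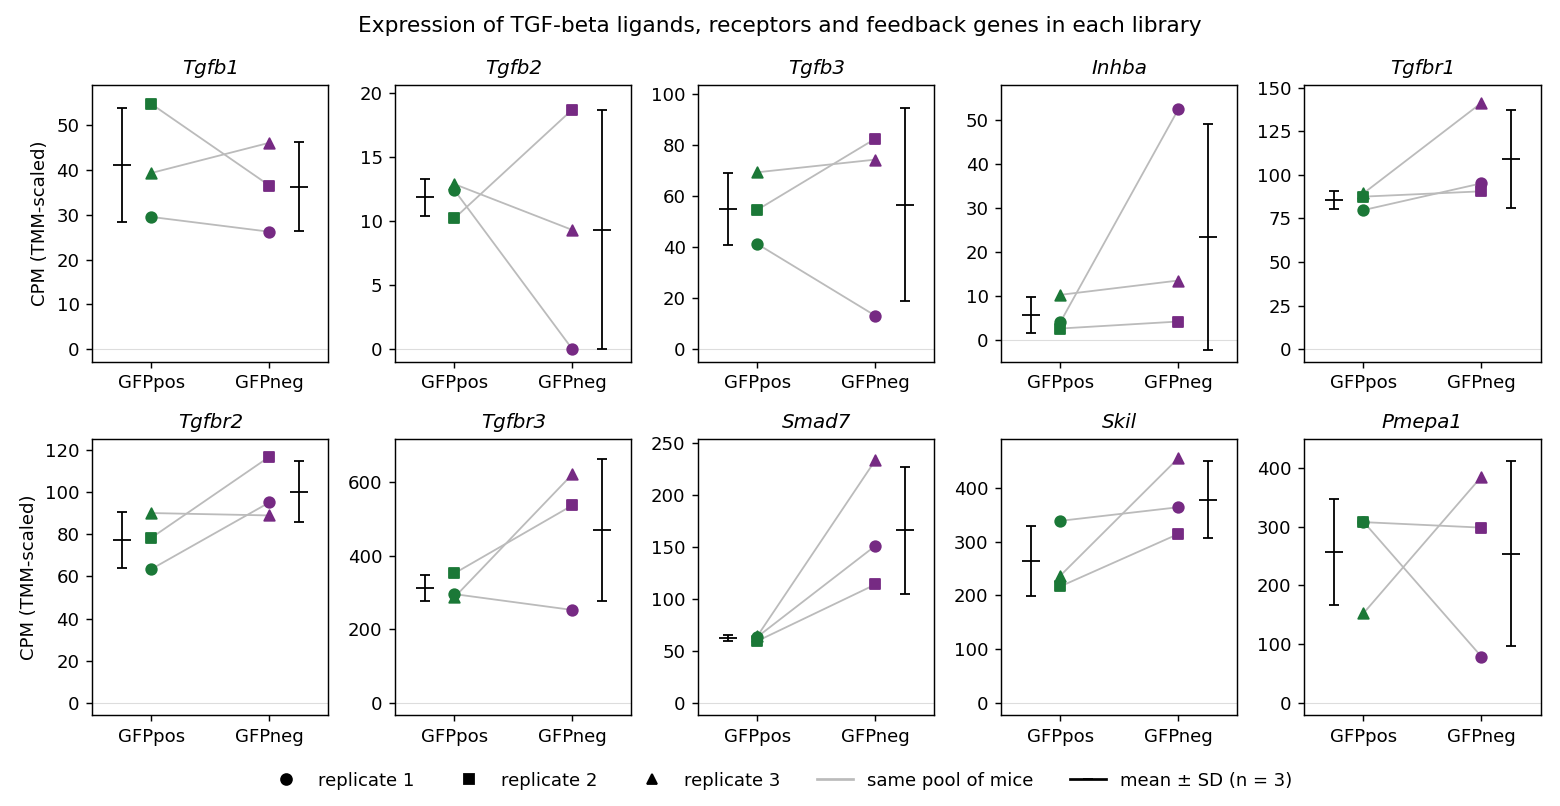
Expression of each of the 10 genes in CPM (y axis, linear) in 3 GFPpos (left, green) and 3 GFPneg (right, purple) libraries, with grey lines joining libraries of the same pool and black bars giving mean ± SD. Under TMM, the GFPpos libraries lie below all GFPneg libraries for Smad7 (59.3 to 63.9 against 114 to 233 CPM) and, by a small margin, for Tgfbr1. The groups overlap for the other 8 genes.

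The other feedback genes behaved less evenly. Skil, which encodes SnoN, a corepressor that binds Smad proteins (chromosome 3, 31095058 to 31122577), stood at 339, 217 and 237 CPM in GFPpos replicates 1, 2 and 3, against 364, 314 and 456 CPM in GFPneg replicates 1, 2 and 3. It was lower in GFPpos cells of each pool under TMM, but of pools 2 and 3 alone with library size only, and the groups overlapped, since GFPpos replicate 1 lay above GFPneg replicate 2. The ratio was 0.930 in pair 1 (0.770 to 1.13), 0.689 in pair 2 (0.659 to 0.721) and 0.519 in pair 3 (0.499 to 0.541), so that the interval of pair 1 included 1. Its log2 fold change was -0.52 (SE 0.38, 95% interval -1.33 to 0.29, adjusted p = 1 in edgeR's test).

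Pmepa1, which encodes a membrane protein that sequesters Smad2 and Smad3 (chromosome 2, 173224458 to 173276533), had different directions in different pools. Its level was 309, 308 and 152 CPM in GFPpos replicates 1, 2 and 3, against 78.7, 299 and 385 CPM in GFPneg replicates 1, 2 and 3. GFPpos was 3.93-fold higher in pair 1 (2.63 to 6.14, with 24 counts in the GFPneg library), did not differ beyond counting error in pair 2 (ratio 1.03, 0.990 to 1.07) and was 0.395 of GFPneg in pair 3 (0.377 to 0.414). The mean was 256 ± 90.2 CPM over GFPpos libraries and 254 ± 158 CPM over GFPneg libraries (SD, n = 3 each), with a log2 fold change of -0.01 and a 95% interval of -1.09 to 1.08. Under TMM the 3 feedback genes did not share 1 pattern. Smad7 was lower in every pool without overlap, Skil was lower in every pool with overlap, and Pmepa1 was of mixed direction.

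**Figure D2:**
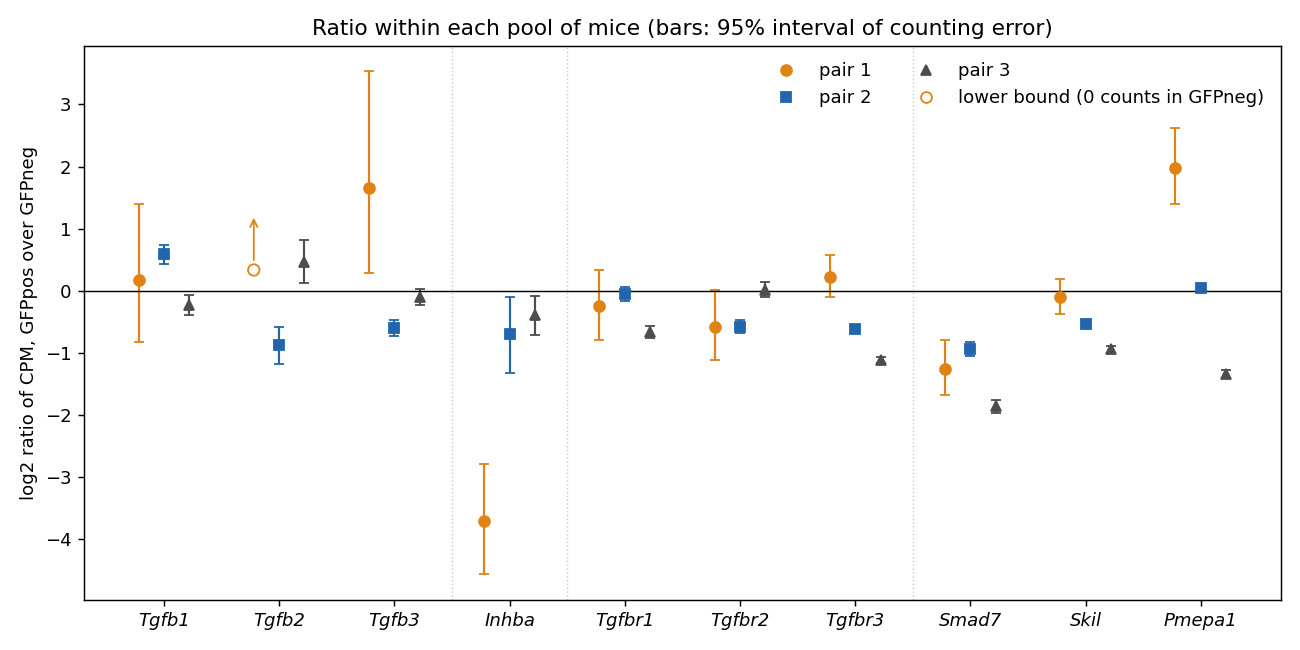
Log2 ratio of CPM, GFPpos over GFPneg, of each gene within each pool of mice (circle pair 1, square pair 2, triangle pair 3), with bars for the 95% interval of counting error only and an open circle with an arrow for the bound against a floor of 3 counts where the GFPneg library held 0 counts. Smad7 has all 3 ratios and their intervals below 0 (log2 -1.25, -0.94 and -1.87), whereas Pmepa1 ranges from 1.97 in pair 1 to -1.34 in pair 3.

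The receptor genes were close to each other in fold change and none passed. Tgfbr1, the type I receptor kinase (chromosome 4, 47353222 to 47414931), stood at 79.7, 87.5 and 89.3 CPM in GFPpos replicates 1, 2 and 3, against 95.1, 90.5 and 141 CPM in GFPneg replicates 1, 2 and 3. The groups did not overlap, but only pair 3 differed beyond counting error (ratio 0.632, 0.590 to 0.678), with ratios of 0.839 (0.580 to 1.26) in pair 1 and 0.966 (0.896 to 1.04) in pair 2. With library size only, GFPpos was higher in pair 1. For Tgfbr1 the log2 fold change was -0.36 (SE 0.43, 95% interval -1.26 to 0.55).

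Tgfbr2, the type II receptor that binds ligand first (chromosome 9, 116084293 to 116175360), stood at 63.4, 78.3 and 90.1 CPM in GFPpos replicates 1, 2 and 3, against 95.1, 117 and 88.9 CPM in GFPneg replicates 1, 2 and 3. Only pair 2 differed beyond counting error (ratio 0.670, 0.622 to 0.722), with ratios of 0.667 (0.460 to 1.00) in pair 1 and 1.01 (0.936 to 1.10) in pair 3. With library size only, the log2 ratio of pair 1 was 0.48. For Tgfbr2 the log2 fold change was -0.38 (SE 0.43, 95% interval -1.30 to 0.54).

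Tgfbr3 (chromosome 5, 107106570 to 107289629), also called betaglycan, is a coreceptor that presents ligand and is needed above all for TGF-beta2. Among the 3 receptor genes of the members, it had the most transcript per kb of exon in both groups. It stood at 296, 352 and 286 CPM in GFPpos replicates 1, 2 and 3, against 252, 537 and 622 CPM in GFPneg replicates 1, 2 and 3. GFPpos cells had less in pairs 2 (ratio 0.655, 0.632 to 0.678) and 3 (0.461, 0.444 to 0.477), while the ratio in pair 1 was 1.17 (0.934 to 1.49) under TMM. Scaled to library size only, Tgfbr3 was higher in GFPpos of pair 1 (log2 ratio 1.30). The log2 fold change was -0.60 (SE 0.41, 95% interval -1.47 to 0.26), and -0.88 without GFPneg replicate 1 (unadjusted p = 0.00460, adjusted p = 0.198 in edgeR's test). Tgfbr3 shares 297 exon bases with Gm43422 on the same strand, so that reads of the 2 genes may be split.

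The 3 TGF-beta ligand genes had no shared direction. Tgfb1, the ligand best known from immune and stromal cells (chromosome 7, 25687002 to 25705077), stood at 29.5, 54.8 and 39.3 CPM in GFPpos replicates 1, 2 and 3, against 26.2, 36.5 and 46.1 CPM in GFPneg replicates 1, 2 and 3. Under TMM, only pair 2 was higher beyond counting error (ratio 1.50, 1.35 to 1.67), and pair 3 was lower (0.853, 0.762 to 0.957). These readings depended on the scaling. The log2 ratio of pair 1 was 0.17 under TMM and 1.24 with library size only, from 8 counts in the GFPneg library. That of pair 3 was -0.23 under TMM and -0.09 with library size only. Over the groups, Tgfb1 had a log2 fold change of 0.15 (95% interval -1.06 to 1.37).

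Tgfb3, a ligand known for its roles in palate fusion and mammary involution (chromosome 12, 86056745 to 86079041), stood at 41.3, 54.7 and 69.5 CPM in GFPpos replicates 1, 2 and 3, against 13.1, 82.6 and 74.4 CPM in GFPneg replicates 1, 2 and 3. The lowest value, in GFPneg replicate 1, rested on 4 counts. The ratio was 3.15 (1.22 to 11.6) in pair 1, 0.662 (0.605 to 0.724) in pair 2 and 0.933 (0.855 to 1.02) in pair 3, and the log2 fold change was -0.11 (95% interval -1.37 to 1.15).

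Tgfb2, the ligand that depends most on betaglycan for binding, was the rarest of the 3 per kb of exon (chromosome 1, 186622792 to 186705989). It stood at 12.4, 10.2 and 12.9 CPM in GFPpos replicates 1, 2 and 3, against 18.7 and 9.29 CPM in GFPneg replicates 2 and 3. GFPneg replicate 1 had 0 counts, which allows a level of up to 9.84 CPM (3 counts), so that GFPpos was at least 1.26-fold higher than this floor in that pair. The lower end of the exact interval of the ratio, which counts the error of both libraries, was 1.01. Pairs 2 and 3 went opposite ways beyond counting error (ratios 0.545, 0.443 to 0.668, and 1.39, 1.10 to 1.76). Exons of Tgfb2 and Tgfb3 overlap predicted genes on the opposite strand over 124 bases (Gm29491), and 163 and 257 bases (Gm37804 and Gm48008), and the strand setting of the counting is not given in the sources used here.

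Divided by exon length, Tgfb3 was the main ligand transcript in 5 of 6 libraries. Its share of the summed CPM per kb of the 3 ligands was 60.4%, 56.2% and 67.2% in GFPpos replicates 1, 2 and 3, against 42.7%, 70.0% and 67.2% in GFPneg replicates 1, 2 and 3. The share of Tgfb1 was 29.0%, 37.7% and 25.5% in GFPpos, against 57.3%, 20.8% and 27.9% in GFPneg libraries, and that of Tgfb2 was at most 10.6%. GFPneg replicate 1, the only library with more Tgfb1 than Tgfb3 per kb, held 12 counts of the 3 genes together. By counts alone, Tgfb1 (45.8%) and Tgfb3 (45.7%) were nearly equal in GFPpos replicate 2. The mean shares of Tgfb3 (61.3% ± 5.56 in GFPpos and 60.0% ± 15.0 in GFPneg cells, SD, n = 3 each) differed by less than the spread between libraries.

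**Figure D3:**
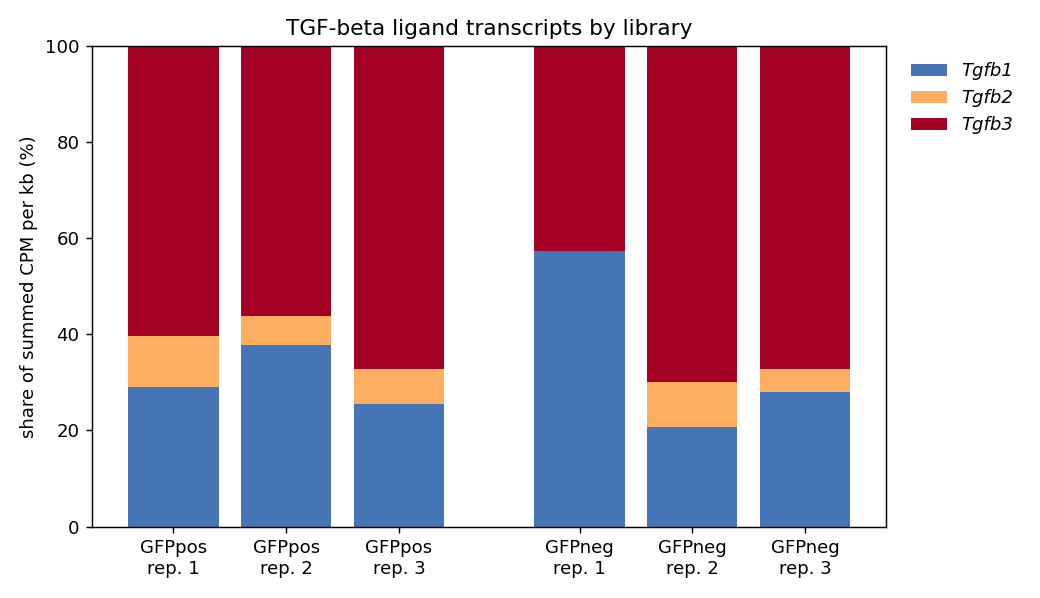
Share of Tgfb1, Tgfb2 and Tgfb3 (stacked, %) in their summed CPM per kb of exon in each library, GFPpos libraries on the left and GFPneg libraries on the right. Tgfb3 takes 56.2% to 67.2% in GFPpos libraries and 67.2% and 70.0% in GFPneg replicates 3 and 2, and the GFPneg replicate 1 bar rests on 12 counts.

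Inhba encodes the subunit of activin A, a ligand that signals through the same Smad2 and Smad3 by way of its own receptors (chromosome 13, 16011851 to 16031621). It stood at 3.99, 2.57 and 10.2 CPM in GFPpos replicates 1, 2 and 3, against 52.5, 4.16 and 13.5 CPM in GFPneg replicates 1, 2 and 3. GFPpos was lower in each pool, by far the most in pair 1 (ratio 0.0760, 0.0420 to 0.144, with 16 counts in the GFPneg library), and by less in pairs 2 (0.618, 0.399 to 0.936) and 3 (0.758, 0.610 to 0.945). The groups overlapped, and pool 3 had more Inhba than pool 2 in both fractions. The log2 fold change of -1.89 (SE 1.04, 95% interval -4.10 to 0.31) became -0.63 without GFPneg replicate 1.

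Promoter sequences from RefSeq (GRCm38.p6, 250 bases before to 50 after the gene start) were given for 5 of the 10 members (Tgfb1, Tgfb2, Inhba, Tgfbr1 and Tgfbr2), with 2 entries for Tgfbr1, of which the one at the annotated gene start is shown. Those of Tgfbr1 and Inhba are shown because both genes were lower in GFPpos cells of every pool under TMM. For Tgfbr1 this did not hold with library size only. That of Tgfb2 is shown because its pools disagreed. Each is printed on the strand of the gene. Capitals mark the Smad motif CAGAC. The Tgfbr1 promoter lies at chr4:47352972-47353271 (plus strand), that of Inhba at chr13:16011601-16011900 (plus strand) and that of Tgfb2 at chr1:186705940-186706239 (minus strand).
Tgfbr1: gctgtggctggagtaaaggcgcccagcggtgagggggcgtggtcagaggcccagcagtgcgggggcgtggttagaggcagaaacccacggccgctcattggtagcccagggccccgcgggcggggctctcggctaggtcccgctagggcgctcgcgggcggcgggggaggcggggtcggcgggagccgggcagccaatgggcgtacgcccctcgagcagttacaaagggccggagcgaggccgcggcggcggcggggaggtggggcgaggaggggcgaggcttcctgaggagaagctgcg
Inhba: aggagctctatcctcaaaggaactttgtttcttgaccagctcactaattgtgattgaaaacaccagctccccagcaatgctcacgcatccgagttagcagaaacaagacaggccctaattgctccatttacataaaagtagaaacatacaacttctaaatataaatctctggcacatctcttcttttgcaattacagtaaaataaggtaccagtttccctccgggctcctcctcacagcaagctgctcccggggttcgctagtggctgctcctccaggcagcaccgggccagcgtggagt
Tgfb2: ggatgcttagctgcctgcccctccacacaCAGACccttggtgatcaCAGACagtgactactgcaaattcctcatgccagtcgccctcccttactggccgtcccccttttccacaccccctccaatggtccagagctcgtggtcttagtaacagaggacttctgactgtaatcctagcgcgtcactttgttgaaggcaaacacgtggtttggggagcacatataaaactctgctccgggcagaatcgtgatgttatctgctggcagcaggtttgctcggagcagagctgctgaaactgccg
The motifs searched on both strands were CAGAC, the AP-1 motif TGANTCA and the RBPJ motif TGGGAA. Matches did not overlap in these windows. CAGAC occurred 2 times in the Tgfb2 window, 204 and 221 bases before the gene start, and none of the 3 motifs was in the windows of Tgfbr1 and Inhba shown here. CAGAC also occurred 1 time each in the other Tgfbr1 entry, 203 bases before its start, and in the Tgfbr2 entry, 160 bases before its start, while the Tgfb1 entry held none of the 3. Of 32851 promoters of this length, 49.6% held CAGAC, 7.81% TGANTCA and 25.6% TGGGAA. The windows also differed in base composition, with 74.7% G and C in Tgfbr1, 54.3% in Tgfb2 and 47.7% in Inhba.

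Levels of different members can be compared per kb of exon. In GFPpos cells Pmepa1 (52.2 ± 18.4 CPM per kb) and Tgfbr3 (47.6 ± 5.41) came first, followed by Skil (27.2 ± 6.75), Tgfb3 (16.3 ± 4.16), Smad7 (13.8 ± 0.556) and Tgfbr1 (13.1 ± 0.776). Then came Tgfbr2 (9.44 ± 1.63), Tgfb1 (8.18 ± 2.52), Tgfb2 (2.04 ± 0.248) and Inhba (0.875 ± 0.638 CPM per kb, SD, n = 3 each). The ranges of Pmepa1 and Tgfbr3, of Tgfb3 and Smad7, of Smad7 and Tgfbr1, and of Tgfbr2 and Tgfb1 overlapped, and those of the other neighbours did not. In GFPneg cells the order was Tgfbr3 (71.9 ± 29.6 CPM per kb), Pmepa1 (51.8 ± 32.2), Skil (39.0 ± 7.39), Smad7 (36.7 ± 13.5), Tgfb3 (16.8 ± 11.2), Tgfbr1 (16.7 ± 4.29), Tgfbr2 (12.3 ± 1.79), Tgfb1 (7.20 ± 1.97), Inhba (3.66 ± 4.01) and Tgfb2 (1.61 ± 1.61, SD, n = 3 each). There the range of Smad7 lay above that of Tgfb3 and the range of Tgfbr2 above that of Tgfb1, and the other neighbours overlapped.

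As a list, the 10 members had 0 genes called in either direction by edgeR over the 13873 genes tested, where 0.0577% of all genes were called higher and 0.00721% lower. With the unadjusted p set below 0.05 instead, 1 member was lower (Smad7) and 0 were higher, against 2.88% and 2.38% of all genes. DESeq2 also called 0 members after adjustment. It had 2 members lower at an unadjusted p below 0.05, against 4.15% of all genes, and called 0.317% of all genes higher and 0.324% lower after adjustment. All 10 passed the filter on low counts. Their median log2 fold change was -0.37, against 0.15 over all genes tested, and 8 of 10 were negative, against 42.5% of all genes, with 57.5% positive. Pmepa1, among the negative members, lay at -0.01. With the replicate block 6 of 10 were negative, and with library size only 7 of 10. The background is not matched in detection, since 6960 of the 13873 genes had a count in GFPneg replicate 1, against all members but Tgfb2. With 1 CPM added, the median log2 ratio over all genes was 1.345, -0.028 and 0.047 in pairs 1, 2 and 3. Over the members it was 0.031, -0.553 and -0.512.

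Lower in GFPpos cells of all 3 pools were 4 members (Inhba, Tgfbr1, Smad7 and Skil), which is 40%, against 8.07% of all genes tested. The background is 16.1% among the 6960 tested genes with at least 1 count in GFPneg replicate 1, since a gene at 0 there cannot be lower. Higher in all 3 pools were 0 members, against 21.5% of all genes tested and 16.1% of those with at least 1 count in GFPneg replicate 1. With library size only in place of TMM factors, 2 members (Inhba and Smad7) were lower in all pools. Under TMM, 2 members did not overlap between the groups (Smad7 and Tgfbr1). They stand against 3.63% of all genes tested, or 7.24% of those detected in GFPneg replicate 1. Under the same scaling 0 members were higher without overlap, against 9.53% and 7.92%. With library size only, the groups overlapped for both Smad7 and Tgfbr1.

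Other genes of the pathway were described from 5 lists of 51 genes in the files, of which 48 were tested. Of these, 0 passed in either direction with the 6 libraries in edgeR's test (unadjusted p below 0.05 in 2 higher and 5 lower genes), with a median log2 fold change of -0.10 (0.11 with library size only). DESeq2 called 1 of them, Nrros, which encodes a protein that anchors latent TGF-beta1 on myeloid cells, higher (adjusted p = 0.0382). Nrros stood at 11.7, 14.5 and 39.8 CPM in GFPpos replicates 1, 2 and 3, against 3.34 and 1.73 CPM in GFPneg replicates 2 and 3, and 0 counts in GFPneg replicate 1, which allows up to 9.84 CPM. Of the 8 immune markers, 2 to 4 were detected in GFPpos and 1 to 3 in GFPneg libraries, with summed levels of 5.62 to 18.3 CPM in GFPpos and 7.39 to 32.8 CPM in GFPneg libraries. Csf1r and Adgre1 were at 0 counts in all 6, and the leukocyte marker Ptprc had 6, 32 and 83 counts in GFPpos replicates 1, 2 and 3, against 0 in each GFPneg library. The part of immune RNA in the Nrros value was not tested.

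Of 12 latency and activation genes, 9 were negative, with a median log2 fold change of -0.40 (6 negative and a median of -0.15 without GFPneg replicate 3, and 7 and -0.16 with library size only). The latent TGF-beta binding protein gene Ltbp2 lay at 213 ± 87.3 CPM in GFPpos and at 467 ± 97.4 CPM in GFPneg cells. Under TMM its groups did not overlap (log2 -1.13, adjusted p = 0.720 in edgeR's test). Ltbp3 averaged 255 ± 73.4 CPM in GFPpos cells, against 309 ± 156 CPM in GFPneg cells. Thbs1, which encodes thrombospondin-1, an activator of latent TGF-beta, averaged 3639 ± 60.9 CPM in GFPpos cells, against 3227 ± 981 CPM in GFPneg cells (SD, n = 3 each). Ltbp4, another binding protein gene of the list, was the 1 pathway gene that passed without GFPneg replicate 1 (log2 -1.52, adjusted p = 0.0302, where 0.19% of all genes were called lower), at 81.1 ± 16.9 CPM in GFPpos, against 229 ± 18.4 CPM in GFPneg cells, over the 6 libraries.

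Of 8 activin ligand, receptor and antagonist genes 6 were tested, 3 positive and 3 negative (median -0.14, and 0.18 with the replicate block). Without GFPneg replicate 1, 5 were negative (median -0.36). Fst, which encodes follistatin, an activin antagonist, stood at 98.5, 57.2 and 21.2 CPM in GFPpos replicates 1, 2 and 3, against 153 and 173 CPM in GFPneg replicates 2 and 3, and at 0 counts (up to 9.84 CPM) in GFPneg replicate 1. It was called lower with pairs 2 and 3 alone (log2 -2.20, adjusted p = 1.61e-07). Of the activin receptor genes, Acvr1b averaged 32.4 ± 14.4 CPM in GFPpos cells, against 24.2 ± 16.4 CPM in GFPneg cells. Acvr2a averaged 21.4 ± 3.53 CPM in GFPpos cells, against 43.0 and 45.2 CPM in GFPneg replicates 2 and 3, with 0 counts (up to 9.84 CPM) in GFPneg replicate 1.

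Of 6 coreceptor and other receptor genes, 4 were positive and 2 negative (median 0.96). The median was 0.40 without GFPpos replicate 3 and 0.50 with pairs 2 and 3 only. Eng, which encodes the endothelial coreceptor endoglin, stood at 137, 129 and 349.5 CPM in GFPpos replicates 1, 2 and 3, against 141, 107 and 73.1 CPM in GFPneg replicates 1, 2 and 3. GFPpos replicate 3 was the highest library, and the summed level of 8 endothelial markers was also highest there (2098 CPM, against 841 and 720.3 CPM in GFPpos replicates 1 and 2, and 1210, 807 and 567 CPM in GFPneg replicates 1, 2 and 3), and the part of endothelial RNA in this value was not tested. Acvrl1, the endothelial type I receptor, stood at 66.8, 39.1 and 120 CPM in GFPpos replicates 1, 2 and 3. In GFPneg replicates 1, 2 and 3 it stood at 13.1 (from 4 counts), 53.8 and 43.0 CPM. Pair 2 was lower in GFPpos (ratio 0.726, 0.651 to 0.808), and the other pairs were higher. Cd109, a coreceptor that restrains signalling, stood at 142, 135 and 57.1 CPM in GFPpos replicates 1, 2 and 3. It stood at 61.2 and 67.3 CPM in GFPneg replicates 2 and 3, with 0 counts (up to 9.84 CPM) in GFPneg replicate 1. GFPpos replicate 3 thus lay below GFPneg replicates 2 and 3.

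Of 12 Smad transducer and repressor genes, 8 were positive and 4 negative (median 0.08), and 0 had an unadjusted p below 0.05. This split turned with the libraries and the fit, with 3 positive without GFPneg replicate 1 (median -0.16), 12 positive without GFPneg replicate 3 (median 0.35), 11 positive with the replicate block and 4 with pairs 2 and 3 only. The corepressor gene Ski, a relative of Skil, lay at 328 ± 55.6 CPM in GFPpos and at 390.0 ± 228 CPM in GFPneg cells. Tgif1, another corepressor gene, averaged 98.0 ± 14.0 CPM in GFPpos cells, against 103 ± 56.3 CPM in GFPneg cells. The phosphatase gene Ppm1a averaged 69.5 ± 4.42 CPM in GFPpos cells, against 68.1 ± 31.1 CPM in GFPneg cells.

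Of 13 target genes in the files 12 were tested, 4 positive and 8 negative (median -0.33). With library size only 6 were positive and 6 negative (median -0.14). Ctgf, a matrix-associated growth regulator that YAP also induces, lay at 341 ± 114 CPM in GFPpos, against 617 ± 169 CPM in GFPneg cells, and was lower in all 3 pools under TMM (log2 -0.86, adjusted p = 0.938). With library size only, its log2 ratio in pair 1 was 0.40. The transcription factor gene Junb averaged 793 ± 103 CPM in GFPpos cells, against 863 ± 316 CPM in GFPneg cells, and Bhlhe40 406 ± 53.6 CPM in GFPpos cells, against 439 ± 117 CPM in GFPneg cells. Both differences were smaller than the spread between GFPneg libraries.

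**Figure D4:**
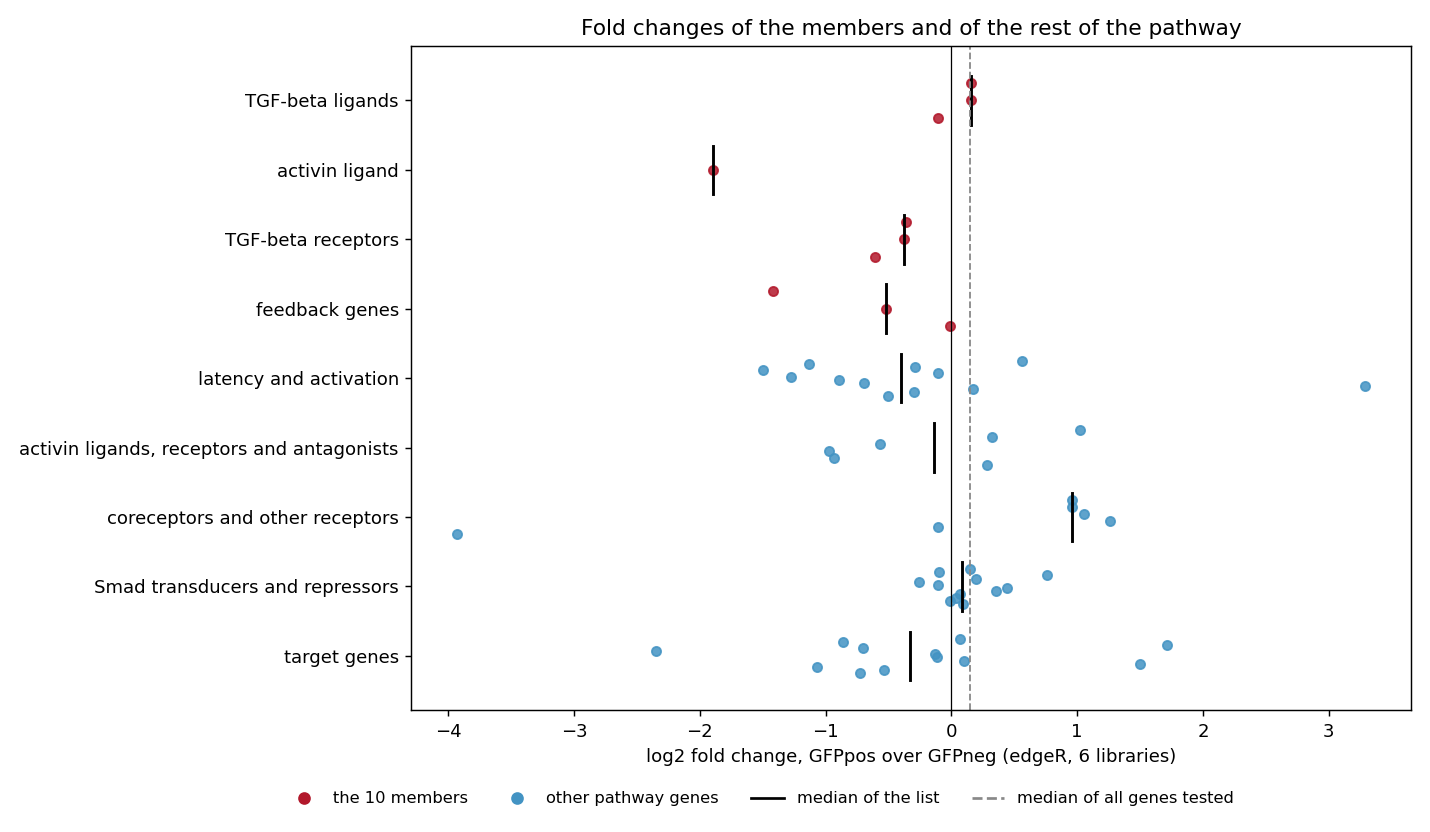
Log2 fold change, GFPpos over GFPneg, of each tested gene (points) in the 4 groups of members (red) and the 5 lists of other pathway genes (blue), with the median of each list as a black bar and the median of all genes tested (0.15) as a dashed line. Smad7 (-1.42) and Inhba (-1.89) stand lowest among the members, and no point passed the threshold over all genes.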

How the data were processed

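The members and lists were chosen with earlier results of these data known. The files deposited by the authors give read counts by gene symbol, 1 file a library, with 51826 symbols followed by 5 summary rows that were left out. The submitters' processing notes name FastQC, cutadapt, TopHat2, HTSeq and build mm10. The deposited files are named for a Gencode annotation. Its release, like the version of each tool and the strand setting, is not given in the sources used here. The share without a feature was 66.4% in GFPneg replicate 1 and 28.8% to 40.5% elsewhere.

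The test was edgeR's quasi-likelihood F test (version 4.0.16, R 4.3.3) with TMM scaling, the filterByExpr filter and group as its single term. Adjustment was by Benjamini-Hochberg over 13873 genes, with a threshold of 0.05. An SE is the unshrunk log2 fold change over the square root of F. Ratios within a pair have 95% exact conditional binomial intervals, for counting error only, and a count of 0 was given a floor of 3 counts. Positions and exon lengths are those of GENCODE M21 (mm10), with the length taken over the union of all annotated exons of a gene. The pathway genes named are the 3 of highest mean CPM in each list. Nrros, Ltbp4 and any other pathway gene were named after their values were seen.

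Per the design text, both fractions of a replicate were sorted from 1 pool, so that the number pairs the samples, and spread between libraries is spread between pools. Deviations of paired libraries from their group means correlated at -0.036, 0.122 and -0.0013. The alternatives were the replicate block, DESeq2 1.42.0, other scaling and filters, and leaving out libraries. In simulated counts with no pair effect (13232 genes, changed genes drawn from the more abundant), the test recovered 1.61% of genes at a log2 change of 1, 15.7% at 2 and 88.2% at 4, and made 3 false calls. The share at a log2 change of 1 rests on 62 genes. Apart from the changed genes, all simulated libraries shared a profile, so the unequal composition of GFPneg replicate 1 was left out.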

Additional observations from a re-analysis of the deposited data

How the results depend on the processing

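With 6 libraries edgeR called 8 genes higher and 1 lower over all genes. The replicate block called 43 and 18, DESeq2 44 and 45, DESeq2 with the replicate block 87 and 55, library size only 5 and 1, no low count filter 65 and 236, and the replicate block with pairs 2 and 3 only 386 and 216. Leaving out 1 library gave 2 to 63 higher and 1 to 29 lower, with 63 and 29 without GFPneg replicate 1. Among the members, 1 (Smad7) was called lower with pairs 2 and 3 only and 0 in the other 13 settings. Smad7 kept its sign in 14 of 14 settings, with log2 fold changes of -1.63 to -1.07 and adjusted p of 0.00229 to 1, and had an adjusted p of 0.706 with the replicate block. Its pair 1 log2 ratio was -0.19 with library size only, where the median of the members in pair 1 was 0.96. Library size only put the median of all genes at 0.31, against 0.15 with TMM. Single genes shifted by unequal amounts, and the median of the members was -0.12, against -0.37 with TMM.

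Of the pathway genes, DESeq2 called 1 higher with and without the replicate block (Nrros), no low count filter 2 lower (Dcn and Col1a1), and pairs 2 and 3 only 3 higher (Nrros, Eng and Tgfbi) and 6 lower (Ltbp2, Ltbp4, Fst, Dcn, Snai2 and Tagln). Leaving out 1 library gave 0 to 1 lower. Without division by exon length, Tgfb1, Tgfb2 and Tgfb3 took 37.9%, 11.3% and 50.8% in GFPpos cells, by construction.

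Small fold changes turned sign. The replicate block gave 0.18 for Tgfb3, 0.17 for Pmepa1, 0.06 for Tgif1 and 0.11 for Ppm1a, and DESeq2 with the block 0.16, 0.15, 0.03 and 0.07. Pmepa1 was at 0.01 in DESeq2, 0.04 with library size only, and 0.00 with DESeq2 size factors, with no filter and without the 5 abundant features, and Ppm1a at 0.00 in the last 2. Library size only gave 0.02 for Tgif1 and Junb, 0.12 for Ppm1a and 0.06 for Bhlhe40, and pairs 2 and 3 only -0.18 for Tgfb2, -0.02 for Thbs1 and -0.22 for Acvr1b. Leaving out 1 library gave -0.10 to 0.37 for Tgfb1, -0.23 to 0.95 for Tgfb2, -0.49 to 0.24 for Tgfb3, -0.39 to 0.41 for Pmepa1, -0.04 to 0.35 for Thbs1, -0.61 to 0.05 for Ltbp3 and -0.01 to 0.81 for Acvr1b. It gave -0.60 to 0.22 for Ski, -0.42 to 0.29 for Tgif1, -0.29 to 0.24 for Ppm1a, -0.37 to 0.12 for Junb and -0.26 to 0.11 for Bhlhe40. The cause was not tested.

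GFPneg replicate 1 limits every pair 1 value, since the members had 0 to 111 counts there. Each group had 3 libraries, and recovery at a log2 change of 1 was 1.61% in simulated counts without the composition of GFPneg replicate 1. At that recovery, differences of the size seen for most members would seldom be called, so the lack of calls does not show that they are absent.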
